A study of Mus musculus with 7 samples.

Results

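Respiratory complex I is the enzyme that admits electrons from NADH into the mitochondrial respiratory chain, and the nuclear genes for its subunits carry names that begin with Nduf. The genes described here are those whose symbol in the count table is Ndufa, Ndufb, Ndufc, Ndufs or Ndufv followed by a digit, together with Ndufab1, which gave 38 of the 24421 gene rows. Of these, 37 were among the 13295 genes with enough counts to be tested, and the remaining gene, Ndufs5, had no count in any library. RNA was sequenced from left atria of adult mice of the outbred CD1 strain, with 4 libraries of the genotype FOG2 Overexpression and 3 of the genotype WT, called overexpression and wild type libraries below. FOG2 is encoded by Zfpm2 and acts as a cofactor of GATA transcription factors through its zinc fingers. The protocol names the animals DTG and NTG and states that both kinds were kept off doxycycline for a week before the hearts were taken, so the wild type libraries share that step. Not given in the sources used here are the promoter that drives FOG2, the cells it acts in, the sex of the animals and whether each library is a separate animal. The spread behind the p-values below is therefore that of these libraries only and may hold technical variation.

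Complex I has an L shape, with a peripheral arm that reaches into the mitochondrial matrix and a membrane arm in the inner membrane. The core subunits of the peripheral arm take electrons from NADH through a flavin and a chain of iron-sulfur clusters to ubiquinone, and the core subunits of the membrane arm, which mitochondrial DNA encodes, pump protons. The accessory subunits surround this core, hold it together and are needed for its assembly. The heart is among the tissues richest in this enzyme, because the contraction of cardiomyocytes depends on oxidative phosphorylation.

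The Zfpm2 transcript followed the labels. It stood at 31.7, 30.9 and 29.4 CPM (counts scaled to the gene total of the library and then by TMM, a factor that evens out the bulk of genes between libraries) in wild type replicates 1 to 3 and at 140.1, 222, 262 and 246 CPM in overexpression replicates 1 to 4, a log2 fold change of 2.82 ± 0.22 (SE; adjusted p = 2.05e-04). Counts in genes came to between 5562520 and 8655655 per library, so that a single count stood for 0.111 to 0.174 CPM. Overexpression replicate 1 correlated with the other overexpression libraries at 0.947 to 0.949 across genes, which was lower than the 0.979 to 0.983 among those 3 and the 0.977 to 0.983 among the wild type libraries. Y-linked transcripts summed to 557 CPM in wild type replicate 2 and 545 CPM in overexpression replicate 1. The other libraries held at most 0.578 CPM of them. The X-linked transcript Xist was at 0.565 and 0.111 CPM in wild type replicate 2 and overexpression replicate 1, and at 819 to 1080 CPM elsewhere. These transcripts mark those libraries as male tissue and the others as female, though the labels do not give sex. Overexpression replicate 1, the least correlated of its group, was thus the only male library in it. Throughout, log2 fold changes are overexpression minus wild type from edgeR's quasi-likelihood test with their standard error, and adjusted p-values are Benjamini-Hochberg values over all 13295 genes, with a threshold of 0.05.

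Transcripts of complex I subunits stood lower in the atria that overexpressed FOG2, by a small amount that most of them shared. Ndufs7, Ndufb5, Ndufb11 and Ndufa6 fell past the threshold, none of the 37 tested genes rose, and 33 did not pass. Over all tested genes, 3.29% were called lower and 1.55% were called higher. The log2 fold change was negative for 34 of the 37 genes, against 6216 of the 13295 genes in all. The median over the 37 genes was -0.33, with a range from -0.58 to 0.19, and the median over all tested genes was 0.02. All 4 overexpression libraries lay below all 3 wild type libraries for 20 of the 37 genes, an order that 10.8% of all tested genes showed. For none of the 37 did all overexpression libraries lie above all wild type libraries, an order that 8.99% of all tested genes showed. At an unadjusted p under 0.05, 21 of the 37 were lower, where 10.05% of all genes were, and 0 were higher, where 9.14% of all genes were. These shares describe the genes beside the background and are not a test of the set. Summed over all subunit genes, the level was 10507 ± 429 CPM (SD, n = 3) in wild type and 8481 ± 548 CPM (SD, n = 4) in overexpression libraries, which is 19.3% lower. By gene totals alone, without the TMM factor, the sum was 9984 ± 126 CPM (SD, n = 3) and 8794 ± 717 CPM (SD, n = 4), which is 11.9% lower. Because whole atria were sequenced, fewer cardiomyocytes and less complex I RNA per cardiomyocyte cannot be told apart.

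**Figure D1:**
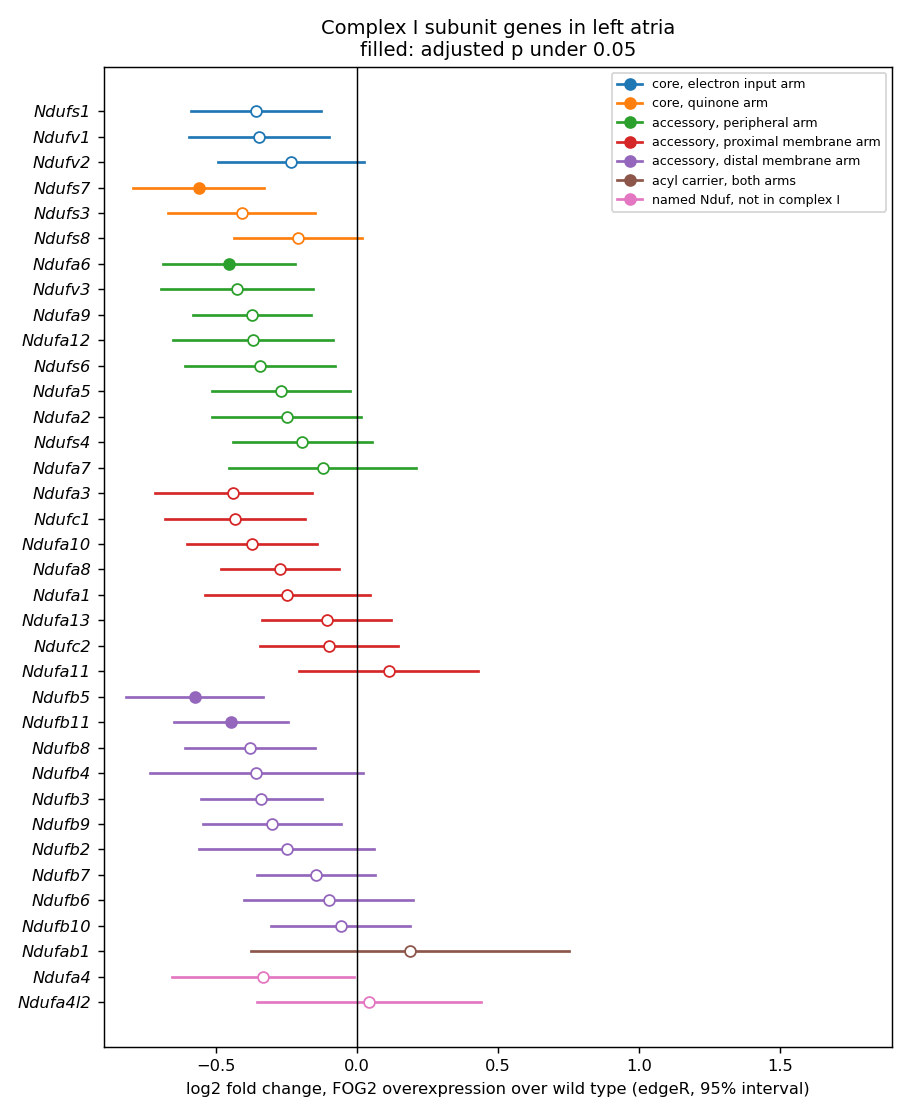
Log2 fold change (overexpression minus wild type) of 36 of the 37 tested genes on the horizontal axis, with its 95% interval, grouped by the place of the protein in complex I; filled points mark the 4 genes past the threshold. Of the 36 points 33 lie left of 0, and the 4 called genes lie between -0.58 and -0.45.

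The number of calls depended on the libraries and settings used. DESeq2 called 15 of the 37 lower and 0 higher. Leaving out wild type replicate 2 or wild type replicate 3 left 0 calls, leaving out wild type replicate 1, overexpression replicate 3 or overexpression replicate 4 left 2, leaving out overexpression replicate 2 gave 6 and leaving out overexpression replicate 1 gave 7. The median of the 37 was between -0.36 and -0.27 in these 7 fits. Calls over all genes moved too, from 438 lower to 181 and 263 without wild type replicates 2 and 3, 205 without wild type replicate 1, and 658, 283, 291 and 304 without overexpression replicates 1 to 4. Scaling to the genes of the sarcomere in place of all genes moved the median of the 37 to 0.08. The median of all tested genes moved to 0.42. Scaling to library totals alone gave medians of -0.21 and 0.15 and left 1 call. The subunit genes lay 0.34 below the median gene with sarcomere scaling, against 0.36 in the chosen scaling. A change of scaling moves all genes by nearly the same amount. This gap is therefore nearly fixed and cannot show which scaling holds.

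The core subunits of the electron input arm, which bind NADH and the flavin and hold the first iron-sulfur clusters, did not pass the threshold. Ndufs1, the largest core subunit and a carrier of several clusters, stood at 941, 998 and 948 CPM in wild type replicates 1 to 3 and at 708, 759.8, 726 and 809 CPM in overexpression replicates 1 to 4. It had the highest CPM of all the subunit genes, and its groups did not overlap (log2 fold change -0.36 ± 0.10, adjusted p = 0.0864). Ndufv1, which holds the flavin and the NADH site, was at 541, 595 and 631 CPM in wild type libraries and 413, 453, 489.7 and 494 CPM in overexpression libraries. Its groups did not overlap either (log2 fold change -0.35 ± 0.11, adjusted p = 0.120). Ndufv2, the partner of Ndufv1, was at 460.2, 566 and 482 CPM in wild type libraries and 426, 475, 399 and 411 CPM in overexpression libraries. Here overexpression replicate 2 exceeded wild type replicate 1, and the adjusted p was 0.314 at a log2 fold change of -0.23 ± 0.12.

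The core subunits around the ubiquinone site held 1 of the 4 calls and had a median log2 fold change of -0.41 over their 4 genes. Ndufs7 holds the iron-sulfur cluster that hands electrons to ubiquinone. Its locus is mm10 chr10:80249121-80256794 (plus strand). It was measured at 133, 157 and 166 CPM in wild type replicates 1 to 3 and at 111, 99.6, 97.6 and 104 CPM in overexpression replicates 1 to 4, so every overexpression library was below every wild type library. Its mean fell from 152 ± 17.0 CPM (SD, n = 3) to 103 ± 6.10 CPM (SD, n = 4), a log2 fold change of -0.56 ± 0.10 (SE; 95% interval -0.79 to -0.33; edgeR adjusted p = 0.0158). This call remained in 15 of 18 other settings. Here and below, the 18 leave out a fit with the replicate number as a block, in which no subunit gene was called. Among the 18, the Ndufs7 call was lost without wild type replicate 2 (adjusted p = 0.0904) or wild type replicate 3 (0.0685) and with sarcomere scaling (0.361).

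Ndufs3 and Ndufs8, of the same arm, were not called. Ndufs3, a core subunit without an iron-sulfur cluster, was at 58.7, 76.0 and 78.8 CPM in wild type libraries and 53.2, 50.8, 56.2 and 53.9 CPM in overexpression libraries. Wild type replicate 1 was the lowest of its group and came close to the overexpression range (log2 fold change -0.41 ± 0.12, adjusted p = 0.0844). Of the stretches of 50 bases in Ndufs3 transcripts, 39.7% also occur in transcripts of other genes, so its counts are uncertain. Ndufs8, which carries the clusters before the last one, was at 202, 221 and 223 CPM in wild type libraries and 177, 209, 171 and 187 CPM in overexpression libraries. Overexpression replicate 2 lay within the wild type range, and the log2 fold change was -0.21 ± 0.10 (adjusted p = 0.297).

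Among the 9 accessory subunits of the peripheral arm, 1 fell, all 9 had negative log2 fold changes with a median of -0.35, and 6 had groups that did not overlap. The gene that fell was Ndufa6, a protein of the LYR family that anchors an acyl carrier protein on the matrix arm. It lies on the minus strand of mm10 chr15:82350140-82354322. Wild type libraries held 269.5, 301 and 303 CPM and overexpression libraries 216, 230.2, 186 and 217 CPM. The lowest wild type library was above the highest overexpression library, and the mean fell from 291 ± 19.0 CPM (SD, n = 3) to 212 ± 18.6 CPM (SD, n = 4). Its log2 fold change was -0.46 ± 0.10 (SE; 95% interval -0.69 to -0.22; adjusted p = 0.0403), and of the 4 calls it was the one lost most often. It passed in 8 of 18 other settings and was lost without any 1 of wild type replicates 1, 2 and 3 (adjusted p = 0.0881, 0.170 and 0.126) or overexpression replicates 2, 3 and 4 (0.0541, 0.0840 and 0.0829). Library totals alone gave 0.103, sarcomere scaling 0.791, a covariate for Y-linked transcripts 0.0516, and the libraries with a low Y-linked level alone 0.0725.

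The promoter of Ndufa6 was the only one among the called genes with a match to a motif searched for, which is why it is shown, beside that of Ndufa11, a subunit gene with the same motif and no fall. The stretches are from RefSeq (GRCm38.p6), on the strand of the gene and upstream of its start. Capitals mark the letters GCATGCGC of the NRF1 motif or its reverse complement GCGCATGC. NRF1 is a transcription factor known for its sites in promoters of respiratory genes.
Ndufa6: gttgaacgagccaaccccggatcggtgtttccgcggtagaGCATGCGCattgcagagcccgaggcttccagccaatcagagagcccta
Ndufa11: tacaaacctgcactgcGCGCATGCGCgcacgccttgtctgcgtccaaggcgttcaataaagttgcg
The Ndufa6 stretch is chr15:82354327-82354414 and its match begins 83 bases before the start of the gene in RefSeq (82354291), which is 52 bases before the start in the annotation used for the loci (82354322). The Ndufa11 stretch is chr17:56717686-56717751 and its capitals hold a match on each strand that overlap, beginning 60 bases before the start in RefSeq. The 250 bases before the RefSeq start could be read for 33 of the 38 genes, in 35 windows. By the annotation used for the loci, exons covered 250 bases of the windows of Ndufb5 and Ndufb11, 143 of that of Ndufs7 and 31 of that of Ndufa6. The Ndufs7 window lay after the start of the gene in that annotation. The lack of a match in these windows therefore says little about sequence upstream of the genes. The NRF1 letters occurred in 3 of these windows (8.57%), those of Ndufa6, Ndufa8 and Ndufa11, where 2.26% of all 32851 windows and 4.11% of the 12847 windows of tested genes had them. Ndufa8 was not called, with a log2 fold change of -0.28 and groups that did not overlap (edgeR adjusted p = 0.142). Any relation between the motif and the changes was not tested. The letters AAGGTCA, bound by the nuclear receptors ERR, were found on either strand before Ndufb2, Ndufb4 and Ndufs5 (8.57%, against 4.08% of all windows and 2.79% of those of tested genes). The GATA motif AGATAA was found before Ndufa12 and Ndufc2 (5.71%, against 9.99% of all windows and 5.96% of those of tested genes). The GABPA letters CCGGAAGT, the YY1 letters AAGATGGC and the TBX5 letters AGGTGTGA were in none of the 35 windows and in 2.88%, 1.56% and 1.12% of all windows, or 5.44%, 1.88% and 0.669% of those of tested genes. A match is a description of the letters and not a measured binding site.

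The other peripheral accessory genes were not called. Ndufa9, a protein that binds NADPH beside the ubiquinone site, came closest to the threshold. It stood at 375, 374 and 372 CPM in wild type libraries and 300.2, 280.2, 267 and 306 CPM in overexpression libraries, with a wide gap between the groups (log2 fold change -0.37 ± 0.09, adjusted p = 0.0545). Ndufv3, a small subunit of the NADH end, was at 308, 304 and 313 CPM in wild type libraries and 207, 279, 218 and 212 CPM in overexpression libraries. Overexpression replicate 2 lay apart from its group but still below all wild type libraries (log2 fold change -0.43 ± 0.12, adjusted p = 0.0810). Ndufa5, Ndufa12 and Ndufs6, the last a zinc-binding protein, had groups that did not overlap, log2 fold changes of -0.27, -0.37 and -0.35, and adjusted p-values of 0.219, 0.144 and 0.148. Ndufs4, whose loss in mice causes a fatal brain disease, Ndufa2 and Ndufa7 overlapped between the groups, with log2 fold changes of -0.20, -0.25 and -0.12 and adjusted p-values from 0.289 to 0.695.

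None of the 8 tested accessory subunits of the proximal membrane arm was called, although 7 had negative log2 fold changes with a median of -0.26 over the 8. Ndufc1, a small membrane subunit, was at 126, 137 and 145 CPM in wild type libraries and 106, 112, 85.4 and 100.3 CPM in overexpression libraries. The groups did not overlap, and its log2 fold change was -0.43 ± 0.11 with an adjusted p of 0.0592. Ndufa3, another small membrane protein, was at 209, 217 and 213 CPM in wild type libraries and 141, 188, 134 and 164 CPM in overexpression libraries, with overexpression replicates 1 and 3 lowest (log2 fold change -0.44 ± 0.12, adjusted p = 0.0834). Ndufa10, which has the fold of a nucleoside kinase, and Ndufa8, a protein of the intermembrane space, also had groups without overlap (log2 fold changes -0.37 and -0.28, adjusted p = 0.0759 and 0.142). The groups overlapped for Ndufa1, Ndufa13 and Ndufc2, with log2 fold changes of -0.25, -0.11 and -0.10. Ndufa11 was the exception in sign. It stood at 209, 217 and 242 CPM in wild type libraries and 300.1, 239, 201 and 223 CPM in overexpression libraries, so that overexpression replicate 1 was above all others and replicates 2 to 4 lay near the wild type range. Its log2 fold change was 0.11 ± 0.14 (95% interval -0.21 to 0.43; adjusted p = 0.712) and became -0.01 without overexpression replicate 1.

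The distal membrane arm held the remaining 2 calls among its 10 accessory genes, all 10 of which had negative log2 fold changes, with a median of -0.32. Ndufb5, a membrane protein of the distal arm, had the most negative log2 fold change of the 37 tested genes. It lies on the plus strand of mm10 chr3:32736990-32751566. Wild type libraries held 384, 408 and 388 CPM and overexpression libraries 275, 293, 227 and 259 CPM, with overexpression replicate 3 lowest and a gap of the groups wider than the range within either. The mean fell from 393 ± 13.1 CPM (SD, n = 3) to 264 ± 27.7 CPM (SD, n = 4), a log2 fold change of -0.58 ± 0.11 (SE; 95% interval -0.82 to -0.33; adjusted p = 0.0172). The call remained in 13 of 18 other settings. It was lost without wild type replicate 1, 2 or 3 (adjusted p = 0.0689, 0.0943 and 0.0588), with library totals alone (0.0518) and with sarcomere scaling (0.373).

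Ndufb11, the X-linked subunit whose human counterpart is mutated in a developmental syndrome of eye, skin and heart, was the other. It lies on the minus strand of mm10 chrX:20615326-20617619. Its wild type libraries held 222, 229 and 231 CPM, a narrow range, and its overexpression libraries 167, 176, 151 and 173 CPM. No overexpression library reached the wild type range, and the mean fell from 227 ± 4.82 CPM (SD, n = 3) to 167 ± 10.8 CPM (SD, n = 4), with a log2 fold change of -0.45 ± 0.09 (SE; 95% interval -0.65 to -0.25; adjusted p = 0.0233). The call remained in 11 of 18 other settings. It was lost without any 1 of wild type replicates 1, 2 and 3 (adjusted p = 0.0895, 0.112 and 0.0820) or overexpression replicates 3 and 4 (0.0559 and 0.0517), with library totals alone (0.0767) and with sarcomere scaling (0.797).

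Ndufb5 and Ndufb11 each overlap a gene on the other strand, and whether counting used the strand is not known here. The partner of Ndufb5 is Mrpl47, a mitochondrial ribosomal protein gene, which had 22.1, 21.5 and 18.0 CPM in wild type libraries and 20.9, 20.8, 16.9 and 17.1 CPM in overexpression libraries (log2 fold change -0.11 ± 0.14, adjusted p = 0.697). The partner of Ndufb11 is Rbm10, a splicing regulator gene, with 18.0, 15.5 and 16.8 CPM in wild type libraries and 20.9, 18.6, 18.1 and 19.1 CPM in overexpression libraries (log2 fold change 0.19 ± 0.12, adjusted p = 0.411). Both partners stood far below the subunit genes and neither was called. Of the stretches of 50 bases in the transcripts, 8.98% for Ndufb5 and 17.5% for Ndufb11 also occur in other genes, against 0% for Ndufs7 and Ndufa6.

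**Figure D2:**
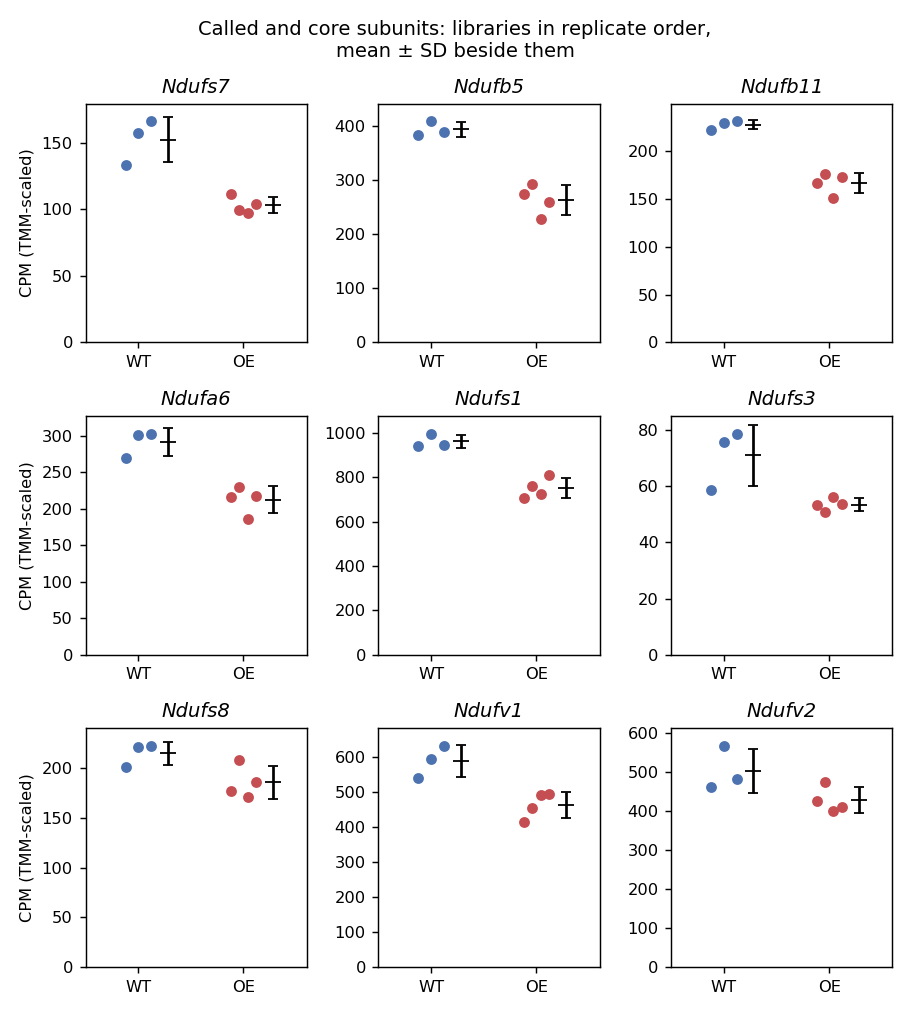
CPM in each library for the 4 called genes and further core subunit genes, 1 panel per gene with its own vertical axis from 0; dots are libraries in replicate order (WT wild type, OE overexpression) and the bars beside them the mean and SD. The groups of the 4 called genes do not overlap, whereas those of Ndufs8 and Ndufv2 do.

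The other distal genes were not called. Ndufb8, a membrane subunit often used as a protein marker of complex I, was at 403, 466 and 399.8 CPM in wild type libraries and 334, 333, 298 and 333 CPM in overexpression libraries, with overexpression replicate 3 alone at the bottom (log2 fold change -0.38 ± 0.10, adjusted p = 0.0695). Ndufb3 and Ndufb9, the latter the LYR protein that anchors an acyl carrier protein on the membrane arm, had groups that did not overlap (log2 fold changes -0.34 and -0.30, adjusted p = 0.0819 and 0.166). The groups overlapped for Ndufb2, Ndufb4, Ndufb6, Ndufb7 and Ndufb10, with log2 fold changes from -0.36 in Ndufb4 to -0.06 in Ndufb10 and adjusted p-values from 0.288 to 0.810. Ndufb4 shares 37.0% of its 50-base stretches with other genes and had the widest spread among overexpression libraries, with a coefficient of variation of 23.6%.

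Several genes with Nduf names differ from the rest in role or in level. Ndufab1 encodes the mitochondrial acyl carrier protein, which also serves fatty acid and lipoate synthesis. It had the lowest level of the tested genes, 4.05, 4.94 and 3.94 CPM in wild type libraries and 5.22, 6.07, 4.87 and 3.49 CPM in overexpression libraries, and the most positive log2 fold change, 0.19 ± 0.25 (95% interval -0.38 to 0.75; adjusted p = 0.731), with overlapping groups. Ndufa4 is now known as a subunit of complex IV. It stood at 915, 941 and 941 CPM in wild type libraries and 691, 924, 618 and 725 CPM in overexpression libraries, where replicate 2 lay within the wild type range and replicate 3 was lowest (log2 fold change -0.33 ± 0.14, adjusted p = 0.243). Ndufa4l2, its hypoxia-induced relative, was at 7.39, 7.49 and 9.61 CPM in wild type libraries and 7.55, 9.24, 8.0 and 8.84 CPM in overexpression libraries, with the groups intermixed (log2 fold change 0.04 ± 0.18, 95% interval -0.35 to 0.44, adjusted p = 0.920). Leaving both out kept the 4 calls and gave a median of -0.34 over 35 genes. Ndufs5, a subunit of the intermembrane face, had 0 counts in every library, which allows up to 0.121 CPM in wild type and 0.102 CPM in overexpression libraries (3 counts over the group, counting error only). Reads that aligned to several places were not counted to genes, and 21.7% of the 50-base stretches of Ndufs5 occur in other genes. Ndufs3 and Ndufb4, with 39.7% and 37.0%, had wild type means of 71.2 and 75.8 CPM. Such shares can also count a gene that overlaps on the other strand, as Kbtbd4 does with Ndufs3. Ndufs5 and Ndufb4 have no such overlap. The shares do not measure the reads lost and cannot tell why a gene had 0 counts. The reason for the 0 counts of Ndufs5 was not tested, so these limits may not hold for its transcript.

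Levels of the subunit transcripts differed widely although the proteins enter the complex in near equal numbers. Divided by the length of all annotated exons of the gene, the wild type level was highest for Ndufa4, at 675 CPM per kb, followed by Ndufb9 at 454, Ndufa1 at 372.5, Ndufa2 at 352 and Ndufa13 at 326 CPM per kb. Among the tested genes, the lowest levels were those of Ndufab1 at 0.627, Ndufa4l2 at 7.45, Ndufb2 at 29.8 and Ndufs3 at 32.7 CPM per kb. Ndufa4 and Ndufa4l2 are not counted as parts of complex I. The other tested genes ran from 0.627 to 454 CPM per kb. These lengths use every annotated exon, so genes with long rarely used exons rank too low. Reads that aligned to several places, 37.1% to 43.4% per library, were not counted to genes either. Of the 50-base stretches, 39.7% for Ndufs3 and 9.53% for Ndufab1 occur in other genes. Among the highest genes these shares were 23.4% for Ndufb9 and 28.5% for Ndufa13. How far uncounted reads shaped the ranking was not tested.

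The shift was present in each overexpression library but not to the same extent. The median deviation of the 37 genes from their wild type mean, on the log2 scale, was -0.34, -0.14, -0.41 and -0.29 in overexpression replicates 1 to 4, and -0.09, 0.04 and 0.03 in wild type replicates 1 to 3. Replicate 3 was therefore lowest and replicate 2 closest to wild type. In overexpression replicates 1 to 4, 30, 22, 35 and 31 of the 37 genes lay below every wild type library. Within the overexpression group, replicate 3 was the lowest library for 26 genes and replicate 2 the highest for 23. The summed CPM was 10019, 10820 and 10683 in wild type and 8333, 9114, 7814 and 8662 in overexpression libraries, without overlap. Coefficients of variation had a median of 6.68% in wild type and 9.25% in overexpression libraries, and 28 of the 37 genes varied more in the latter.

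**Figure D3:**
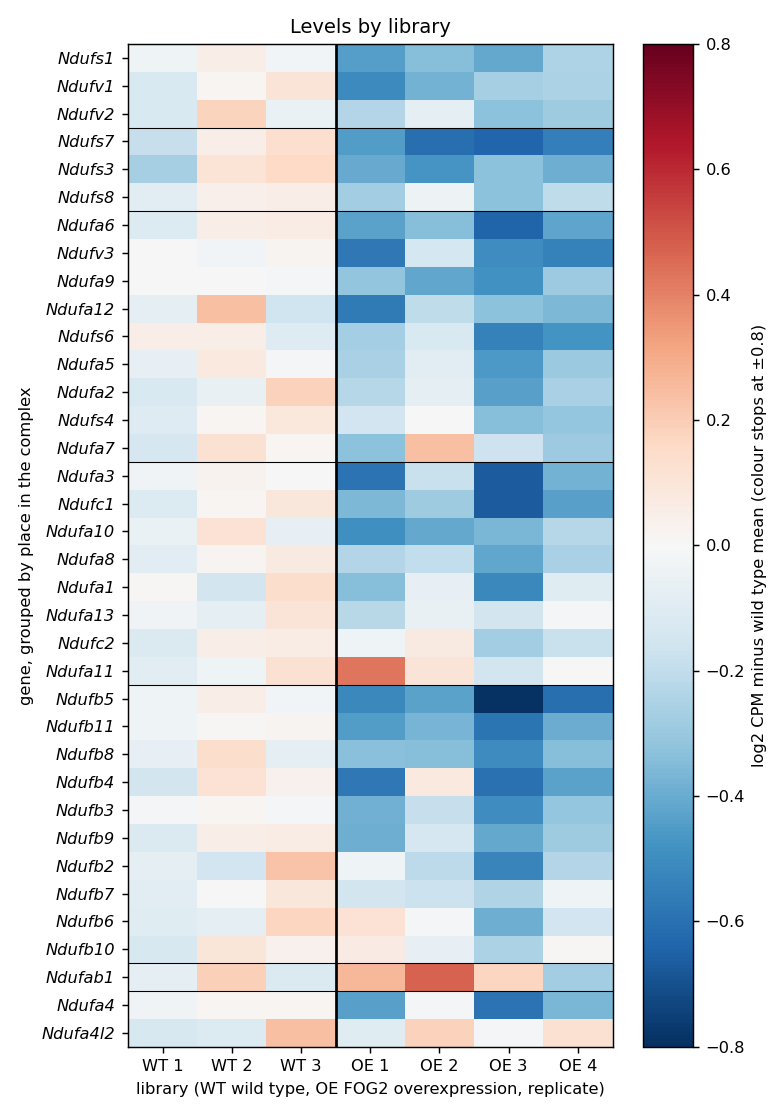
Log2 CPM minus the wild type mean for 36 of the 37 tested genes (rows, grouped by place in the complex) in the 7 libraries (columns), with blue for lower and red for higher. The column of overexpression replicate 3 is the bluest, with a median over the 37 genes of -0.41, and that of replicate 2 the nearest to wild type of the overexpression columns, with -0.14.

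Overexpression replicate 2 also stood apart in markers of brown fat, a tissue rich in respiratory chain proteins. Ucp1, the uncoupling protein that defines brown fat, had 15.02 CPM (104 counts) in that library, 2 counts in overexpression replicate 1 and 0 in the other libraries. Adipoq, the adipocyte hormone adiponectin, was at 2.98, 2.12 and 4.80 CPM in wild type libraries and 0.333, 17.5, 1.22 and 1.63 CPM in overexpression libraries. Of the 10 markers 7 were tested and Elovl3 was at 0 in every library. Their median deviation was 1.5 in replicate 2 and their summed level ranged from 1073 to 1127 CPM in wild type and from 842 to 1173 CPM in overexpression libraries. Cox7a1 and Cox8b made up most of that sum, with wild type means of 675 and 399 CPM, so it mainly follows them. Replicate 2 was not the highest library for every marker. Dio2 was at 114 CPM in overexpression replicate 1 and 13.0 CPM in replicate 2. Cox8b, at 326 CPM in replicate 2, was below every wild type library there. Without overexpression replicate 2, 6 subunit genes were called lower, 0 higher, and the median of the 37 was -0.36, against -0.33 with it. Whether brown fat had a part in the subunit levels of that library was not tested.

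Most genes of the rest of the respiratory chain also had negative log2 fold changes. Among 19 assembly factors of complex I, 17 had negative log2 fold changes with a median of -0.20 and 1 was called. This was Foxred1, an oxidoreductase needed for the assembly of complex I, at 74.7, 82.6 and 76.5 CPM in wild type libraries and 54.4, 48.8, 53.8 and 54.7 CPM in overexpression libraries. It fell from 77.9 ± 4.17 CPM (SD, n = 3) to 52.9 ± 2.77 CPM (SD, n = 4), with no overlap (log2 fold change -0.56 ± 0.09, adjusted p = 0.00829), and passed in 16 of 18 other settings. Of the 4 subunits of complex II, which feeds electrons from succinate, 3 fell. These were the flavoprotein Sdha (-0.61 ± 0.11, adjusted p = 0.0182), the iron-sulfur protein Sdhb (-0.59 ± 0.12, 0.0233) and the membrane anchor Sdhd (-0.44 ± 0.10, 0.0429), all as log2 fold change with SE. They passed in 13, 12 and 7 of 18 other settings.

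Complexes III and V had no called gene among 9 and 15 tested, and medians of -0.30 and -0.25. In complex IV, 2 of 13 genes fell and 0 rose, namely Cox8b, the muscle and brown fat isoform of a small subunit (-0.57 ± 0.12, adjusted p = 0.0329), and Cox5a (-0.39 ± 0.09, adjusted p = 0.0423). Of the 13, 10 had negative log2 fold changes. Cox8a, the widely expressed counterpart of Cox8b, was at 55.9, 53.1 and 61.7 CPM in wild type libraries and 94.5, 70.0, 67.2 and 80.5 CPM in overexpression libraries, all of them above wild type (0.46 ± 0.13, adjusted p = 0.0909). Cox6a1, likewise the isoform of other tissues, was at 42.8, 49.1 and 56.0 CPM in wild type libraries and 95.1, 67.2, 55.7 and 62.7 CPM in overexpression libraries, which overlapped (0.51 ± 0.19, adjusted p = 0.176). Over complexes II to V, 5 of 41 tested genes were lower, 38 had negative log2 fold changes and the median was -0.28. The difference between complex I and the other complexes was not tested. Among 10 electron carriers and other quinone reducers, Etfdh, which passes electrons from fatty acid oxidation to ubiquinone, fell (-0.65 ± 0.13, adjusted p = 0.0225). Among 16 genes of mitochondrial import and shape, the fusion protein Mfn1 fell (-0.50 ± 0.11, adjusted p = 0.0384). Cox8b and Mfn1 passed in 10, Cox5a in 7 and Etfdh in 13 of 18 other settings, and Cox5a reversed to 0.01 with sarcomere scaling.

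None of 18 regulators of respiratory genes was called, with a median of -0.14, and 3 of them were lower and 0 higher at an unadjusted p under 0.05 by edgeR. Ppargc1a, the coactivator known as a driver of mitochondrial gene expression, stood at 92.1, 108 and 73.3 CPM in wild type libraries and 36.3, 57.8, 64.0 and 71.9 CPM in overexpression libraries. No overexpression library reached the wild type range, the lowest being replicate 1, and the log2 fold change was -0.66 ± 0.22 (adjusted p = 0.148).

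**Figure D4:**
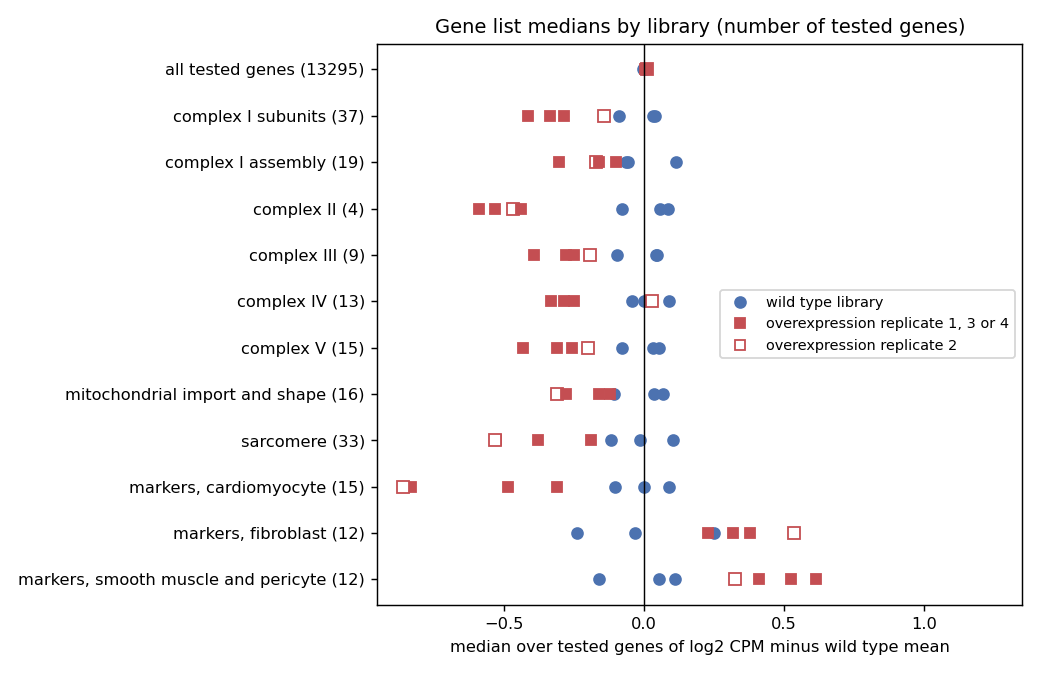
Median over the tested genes of each list of log2 CPM minus the wild type mean, 1 point per library, with wild type as circles, overexpression as squares and overexpression replicate 2 as an open square. For complex I subunits the overexpression libraries lie between -0.41 and -0.14, left of the wild type libraries between -0.09 and 0.04.

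Markers of the cell types in the atrium also differed between the groups, in both directions. All 15 cardiomyocyte markers had negative log2 fold changes, with a median of -0.51, and 6 were called lower. The called genes were Kcnj3, Sln, Pln, Ryr2, Myl7 and Atp2a2, from -2.02 in Myl7 to -1.13 in Ryr2. The 9 others ran from -1.07 in Gja5 to -0.05 in Actn2, so the markers did not fall evenly. Their summed level ranged from 167870 to 197290 CPM in wild type and from 102230 to 144090 CPM in overexpression libraries. Ttn, Myh6 and Nppa made up most of that sum, with wild type means of 74321, 27615 and 25004 CPM. By library, the median deviation of these markers from the wild type mean was -0.83, -0.86, -0.49 and -0.31 in overexpression replicates 1 to 4. Replicates 1 and 2 were thus lowest and nearly equal. In the subunit genes replicate 2 was closest to wild type, and how these orders relate was not tested. Of 33 sarcomere genes 9 were called lower, with a median of -0.36, close to that of the subunit genes. The 12 fibroblast markers had a median of 0.46 with 0 called, and summed to between 12037 and 16966 CPM in wild type and between 16553 and 20167 CPM in overexpression libraries. Smooth muscle and pericyte markers had a median of 0.61 with 3 of 12 called higher, macrophage markers 0.28 and endothelial markers -0.15 with none called. Of the erythroid markers, the haemoglobin genes were at 0 in every library and Alas2, the erythroid enzyme of haem synthesis, was at 35.9, 49.1 and 37.9 CPM in wild type libraries and 221, 55.7, 105 and 25.8 CPM in overexpression libraries. The part of these cell types in the lower subunit levels was not tested.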

How the data were processed

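RNA from left atria of adult CD1 mice was sequenced in 7 libraries, 4 labelled FOG2 Overexpression and 3 labelled WT. The deposited table gives the authors' whole-number counts per gene. Per the submitters' processing notes, the genome build was mm10 and the tools included HTSeq 0.6.0, STAR and DESeq2, without their roles. How RNA was selected is unclear, as the label speaks of polyA mRNA and the protocol of ribosomal RNA removal. Strand use in counting is not given in the sources used here. Of all counted reads, 27.8% to 33.1% per library lay in genes; rows without a gene (no feature 23.4% to 30.5%, not unique 37.1% to 43.4%, ambiguous 0.101% to 0.254%) were left out.

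Genes were filtered with filterByExpr (minimum count 10, minimum total 15), which left 13295 of 24421 rows. Settings counted beside a gene leave out the replicate block. Genes were scaled by TMM and tested with edgeR 4.0.16 (R 4.3.3; quasi-likelihood, robust, two-sided, no covariate) with Benjamini-Hochberg adjustment over all tested genes and a threshold of 0.05. Standard errors are the log2 fold change over the root of F, and the common biological coefficient of variation was 0.188. The deposited counts give depth per library; 1 count is worth 0.111 to 0.174 CPM, which sets the precision of low genes. The test was tried on simulated counts first.

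Gene lists and members were chosen with earlier results of these data known. A gene that the naming rule covers is not reported here and stayed in the counts and medians. Per-library values are given for called members, core subunits, the 3 members with the most negative and the 3 with the most positive fold change, the highest and lowest by level, Ndufab1, Ndufa4 and Ndufa4l2, and up to 6 others without overlap and with the smallest p. In other lists, called genes (at most 4) are named; Mrpl47, Rbm10, Ppargc1a, Ucp1, Adipoq and Elovl3, Cox8a and Cox6a1 were chosen after their values were seen. Positions and exon lengths are from GENCODE M21, which matched 23376 symbols, and promoters from RefSeq GRCm38.p6.

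Alternatives were RLE, upper quartile, totals only or sarcomere scaling, no filter, a minimum of 1 CPM in 3 libraries, limma-voom (limma 3.58.1), DESeq2 1.42.0, no robust dispersions, a replicate block, a covariate of Y-linked transcripts, and each library left out. The libraries with low Y-linked levels alone were chosen after seeing the data.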

Additional observations from a re-analysis of the deposited data

Results flagged for a closer look

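In 2 of the 37 genes, 1 overexpression library lay far from the other 3 by Dixon's criterion for 4 values (gap over range above 0.829), which chance gives in about 1 of 20 groups. Ndufb8 was at 298 CPM in overexpression replicate 3, against 333 to 334 CPM in the other overexpression libraries, with a gap ratio of 0.970. Ndufv3 was at 279 CPM in overexpression replicate 2, against 207 to 218.5 CPM in the others, with a gap ratio of 0.846. Replicate 3 had the lowest median over the subunit genes, at -0.41, and replicate 2 the highest, at -0.14. The wild type group of 3 was too small for this check.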

How the results depend on the processing

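Of the 37 tested genes, 4 were called lower and 0 higher, and the median log2 fold change was -0.33. RLE and upper quartile scaling, no filter, a CPM filter and limma-voom also called 4 lower. DESeq2 called 15 lower, library totals only 1 (median -0.21), and sarcomere scaling 0 lower and 1 higher (Ndufa11) with a median of 0.078. Leaving out each library in turn gave between 0 and 7 lower and a median between -0.36 and -0.27. The cause was not tested. Over all genes, 32.0% of calls were higher, against 60.2% with totals only and 94.4% with sarcomere scaling. DESeq2 called 681 genes lower and 460 higher, where edgeR called 438 and 206.

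With the replicate number as a block, 0 genes were called lower and 0 higher, and the median was -0.31. Adjusted p-values were 0.0867 for Ndufs7, 0.0711 for Ndufb5, 0.0973 for Ndufb11 and 0.123 for Ndufa6, and the 8 called genes named from other mitochondrial lists did not pass either. Same-numbered libraries correlated in their deviations from the group means at 0.0789, 0.0136 and 0.0720 for numbers 1 to 3. Wild type replicates 1 and 3 correlated best with their own number, and wild type replicate 2 with overexpression replicate 4 (0.152). With so few libraries, these values cannot tell whether same-numbered libraries share more than a number. In the sample descriptions the libraries carry other numbers, none of them shared between the groups, so those names give no pairing. Over all genes the block left 253 lower and 129 higher calls.

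Sarcomere scaling reversed these log2 fold changes: Ndufa1 0.15, Ndufa10 0.026, Ndufa12 0.041, Ndufa13 0.29, Ndufa2 0.16, Ndufa4 0.078, Ndufa5 0.14, Ndufa7 0.30, Ndufa8 0.13, Ndufa9 0.025, Ndufb10 0.35, Ndufb2 0.15, Ndufb3 0.064, Ndufb4 0.061, Ndufb6 0.31, Ndufb7 0.25, Ndufb8 0.027, Ndufb9 0.105, Ndufc2 0.31, Ndufs1 0.042, Ndufs4 0.22, Ndufs6 0.068, Ndufs8 0.20, Ndufv1 0.049, Ndufv2 0.18 and Cox5a 0.012. Totals only reversed Ndufa13 (0.014), Ndufa7 (0.0088), Ndufb10 (0.067), Ndufb6 (0.024) and Ndufc2 (0.028). The low Y-linked libraries alone gave -0.032 for Ndufa11 and 0.0035 for Ndufa7. Leaving out 1 library gave ranges of -0.013 to 0.19 for Ndufa11, -0.026 to 0.18 for Ndufa4l2 and -0.12 to 0.00058 for Ndufb10. Of the tested genes, Ndufab1 rested on the fewest counts, 28 to 47 per library.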
